A study of Mus musculus with 32 samples.

Results

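The genes described here had their highest level at the 8-cell stage of mouse preimplantation development. They were found in a table with 1 FPKM value per gene and stage (fragments per kilobase of transcript, scaled to sequencing depth). Stage columns were scaled to a common median. A gene was kept if it had 5 FPKM or more at the 8-cell stage, and its difference was log2(scaled FPKM + 1) at the 8-cell stage minus the highest of the other 7 stages. Of 24013 genes in the table, 5347 reached 5 FPKM at the 8-cell stage, 916 of these (17.1%) were highest there, and 90 (1.68%) were highest by at least 1 on this log2 scale. These 90 are called 8-cell peak genes. There was 1 value per stage, so the differences between stages are descriptions with no test and no replicate check.

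In the mouse, the embryo's own genes are switched on mainly at the 2-cell stage. During the 8-cell stage the cells flatten against each other in compaction, form polarised outer surfaces and junctions, and soon divide into inner cells and outer cells. The outer cells become the trophectoderm, the first epithelium, and the inner cells give rise to the inner cell mass (ICM), the source of embryonic stem cells. Nr5a2 is an orphan nuclear receptor, a DNA-binding transcription factor of the early embryo, liver and gonad.

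Libraries were made by Smart-seq2, which copies whole transcripts into cDNA from very few cells, with small changes. All embryos were crosses of superovulated C57BL/6N mothers and DBA/2N fathers. The stage table drew on 2 samples each of 8-cell embryos, MII oocytes (from C57BL/6N females), zygotes, early 2-cell, 2-cell and 4-cell embryos and mouse embryonic stem cells (mESC, grown in LIF and serum), and on 3 samples of ICM isolated by immunosurgery. Separate tables held single libraries of embryos cultured after siRNA injection: 4 libraries of 8-cell embryos with Nr5a2 knockdown and 4 of 8-cell knockdown controls, all injected and cultured, and 3 of blastocyst knockdown controls. The labels give no embryo numbers, culture batches or litters, so p-values measure only the spread between these libraries, which may be technical. In such bulk samples, fewer cells of a type and less RNA per cell cannot be told apart.

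The 8-cell column held markers of the early embryo and not of maternal somatic cells. At 8-cell, 5 of 6 pluripotency markers, 4 of 7 trophectoderm markers and 2 of 5 primitive endoderm markers reached 1 FPKM, as did 1 of 5 2-cell markers and 4 of 5 oocyte markers, these at a sum of 40.8 FPKM. None of 10 cumulus and granulosa cell markers, 5 sperm markers or 5 fibroblast markers reached 1 FPKM, and the fibroblast markers were all listed at 0. In injected 8-cell control 4, the sperm markers Prm1, Tnp1 and Prm2 had 3.96, 2.04 and 1.27 FPKM, and they were at 0 in the other controls. The 8 injected 8-cell libraries spanned a 2.91-fold range of relative depth, read from the steps between low FPKM values, and 7703 to 8370 genes reached 1 FPKM in each. The stage and knockdown tables were normalized separately. The ribosomal RNA precursor gene Rn45s stood at 0 in the 8-cell stage column and at 24968 to 29618 FPKM in the 4 injected controls, so levels set side by side across the tables are only approximate.

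Short RNA loci held 10 of the 11 largest differences. These were 6 miRNA loci, 3 snoRNA loci and the small Cajal body RNA locus Scarna8, of 110 to 137 bases each. The stage table listed Mir6236 at 63.1 FPKM, Mir6516 at 48.9, Snora15 at 46.9 and Scarna8 at 38.6 FPKM at the 8-cell stage. Mir8094 stood at 21.2, Mir8098 at 16.4, Mir546 at 15.4, Mir1192 at 14.8, Snora62 at 8.86 and Snora7a at 8.31 FPKM. In the other 7 stages each of the 10 was listed at 0 or below 0.1 FPKM. None of the 10 has a row in the knockdown tables, so their level in separate 8-cell libraries was not analysed here. FPKM divides by length, and 6 of the 10 lie over exons of a longer gene, whose own level did not peak at the 8-cell stage in the 3 following cases. Cct6a, host of Snora15 and a chaperonin subunit, had 225 FPKM at 8-cell and 561 in ICM. Ddx39b, host of Mir8094 and an RNA helicase, had 89.3 FPKM at 8-cell and 187 in ICM. Rpl32, host of Snora7a and a ribosomal protein gene, had 1048 FPKM at 8-cell and 1678 in mESC. The mature sequences of the leading miRNA loci are shown because these loci head the ranking (RefSeq, GRCm38.p6, 5′ to 3′, seed bases 2 to 8 in capitals).
mmu-miR-6236: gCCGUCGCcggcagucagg
mmu-miR-6516-5p: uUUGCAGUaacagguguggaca
mmu-miR-6516-3p: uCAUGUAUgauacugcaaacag
The 3 seeds differ from each other. The table gives a value for the locus and not for a mature arm, so no level of these molecules can be read from it.

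The other 80 peak genes, 79 of them protein-coding, are also in the knockdown tables, and all that follows is about them. Their median FPKM was 0.358 in MII oocytes, 0.328 in zygotes, 0.679 in early 2-cell, 2.60 in 2-cell, 7.81 in 4-cell and 29.0 in 8-cell embryos, then 4.67 in ICM and 0.651 in mESC. Levels at the 8-cell stage ran from 5.51 FPKM (Anpep) to 1448 FPKM (Hprt), against a median of 19.3 FPKM over all 5347 genes that reached 5 FPKM there. The usual shape was a climb over the cleavage stages with a fall towards ICM. In 70 of the 80, the 4-cell value was already above the zygote, early 2-cell and 2-cell values. The stage next in height was 4-cell for 46 genes, ICM for 21, mESC and 2-cell for 4 each, early 2-cell for 3, and MII oocyte and zygote for 1 each. In all, 40 of the 80 were under 1 FPKM in oocyte, zygote and early 2-cell, and 20 of them were also under 1 FPKM in 2-cell embryos. Another 15 had 5 FPKM or more in oocytes. In ICM 62 of the 80 kept 1 FPKM or more, while 30 had fallen below 0.1 of their 8-cell level. In mESC 34 reached 1 FPKM. By the same rule, the number of peak genes was 466 for MII oocyte, 22 for zygote, 79 for early 2-cell, 102 for 2-cell, 39 for 4-cell, 324 for ICM and 781 for mESC.

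**Figure D1:**
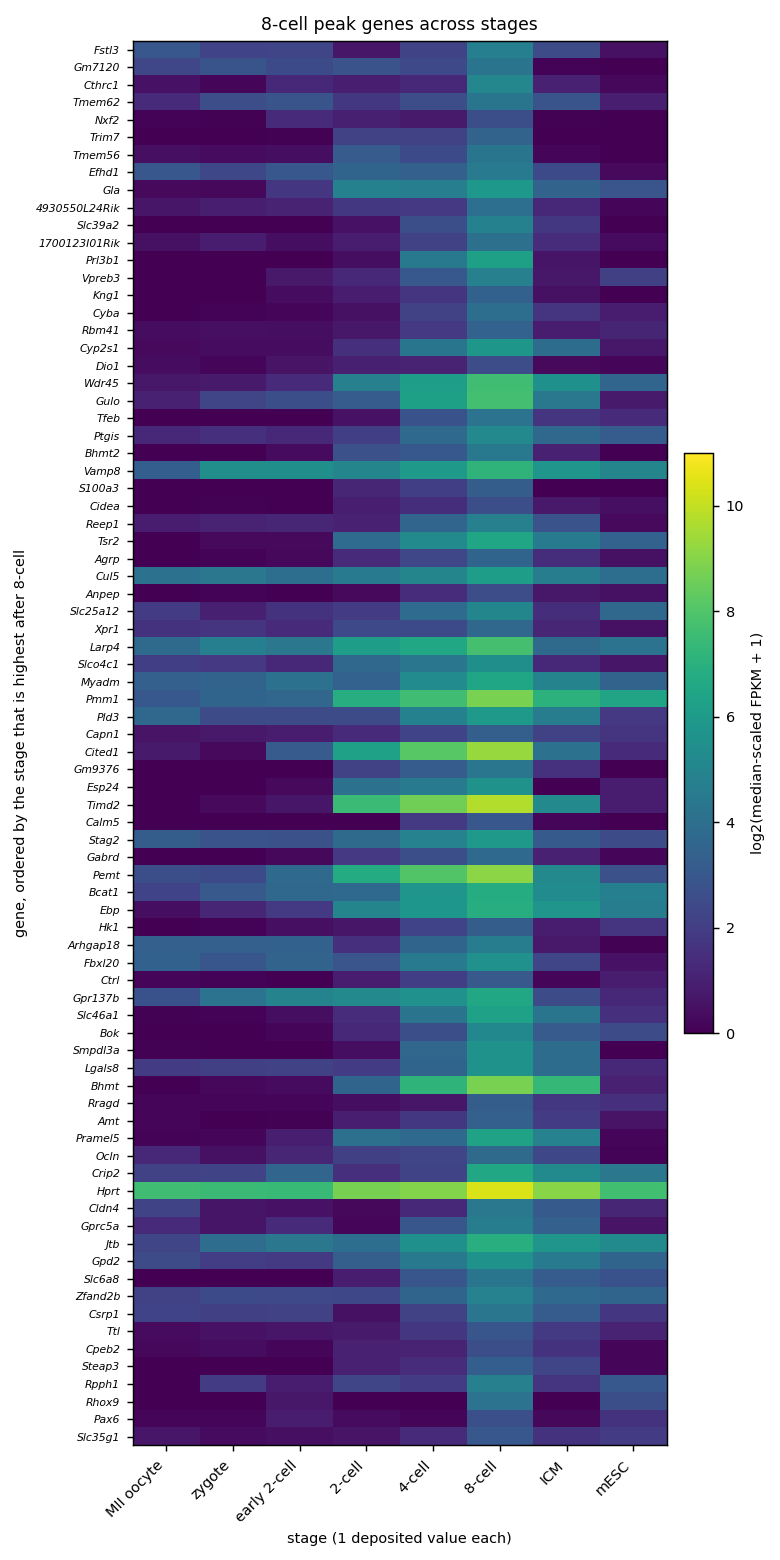
Level of the 80 peak genes that are also in the knockdown tables (rows) in the 8 stages (columns), as log2(median-scaled FPKM + 1), coloured on a scale from 0 to 11. The 8-cell column is the brightest in every row by construction; rows are ordered by the stage that comes next, and most rows are dark before the 2-cell stage.

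Among single genes, Cthrc1, which encodes a secreted glycoprotein that acts on collagen and Wnt signalling, stood out most. It had 0.489 FPKM in oocytes, 0.0955 in zygotes, 1.20 in early 2-cell, 0.933 in 2-cell, 1.56 in 4-cell and 36.0 in 8-cell embryos, and 1.20 in ICM and 0.132 in mESC. Its scaled 8-cell level was 23.8 times that of the next stage, and no other peak gene outside the short RNA loci exceeded 6.1 times. In the injected 8-cell controls it had 8.16, 17.9, 16.0 and 63.7 FPKM, a wide spread, and in blastocyst controls it was 0.112, 0.114 and 0 FPKM.

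Solute carriers, with 374 genes in the stage table, gave the most peak genes by number among 27 lists of pathways and cell types. Of 75 solute carriers with 5 FPKM or more at the 8-cell stage, 22 (29.3%) were highest there and 5 (6.67%) were peak genes, beside 17.1% and 1.68% of all genes. By share, the amino acid and one-carbon list (16.0%) and the junction list (9.52%) stood higher. Signalling (12.5%), glycolysis and housekeeping (7.14% each) also stood higher, from a single peak gene each. Slc39a2, a zinc importer, had no more than 0.483 FPKM up to the 2-cell stage, then 6.17 in 4-cell, 30.2 in 8-cell, 2.97 in ICM and 0 in mESC. Slc46a1, the proton-coupled folate transporter, had 1.69 FPKM in 2-cell, 20.7 in 4-cell, 85.5 in 8-cell, 22.0 in ICM and 1.29 in mESC. The other members were Slc25a12, the mitochondrial aspartate-glutamate carrier (35.3 FPKM at 8-cell, 15.8 at 4-cell), the creatine transporter Slc6a8 (20.5 at 8-cell, 9.78 in ICM) and Slc35g1 (7.55 at 8-cell, 2.47 in ICM). In the injected controls the zinc importer had 21.3, 15.2, 20.9 and 16.8 FPKM and the folate transporter 45.2, 75.9, 70.7 and 56.5 FPKM, so both were present at a similar level in each of these 4 libraries. The blastocyst controls were not lower as a group, with 15.8, 25.2 and 67.2 FPKM for the zinc importer and 97.3, 65.9 and 74.9 FPKM for the folate transporter, and for both genes they overlapped the 8-cell controls.

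Enzymes of amino acid and one-carbon metabolism gave 4 peak genes among 25 that reached 5 FPKM at the 8-cell stage (16.0%, beside 1.68% of all genes), and 10 of the 25 were highest there (40%, beside 17.1%). Bhmt uses betaine to turn homocysteine back into methionine. It was at most 0.232 FPKM before the 2-cell stage, then 11.3 in 2-cell, 164 in 4-cell, 489 in 8-cell, 189 in ICM and 0.681 in mESC. Its relative Bhmt2, which uses another methyl donor for the same step, had 5.91 FPKM in 2-cell, 8.24 in 4-cell, 22.6 in 8-cell and 1.21 in ICM. Amt, a subunit of the glycine cleavage system, had 10.3 FPKM at 8-cell and 3.34 in ICM. Bcat1, the cytosolic branched-chain aminotransferase, had 124 FPKM at 8-cell and 61.6 at 4-cell. Just outside the limit, at a difference of 0.97, lay Cth, which makes cysteine from cystathionine, with 138 FPKM at 8-cell and 73.8 at 4-cell. Further enzymes among the peak genes were picked for mention after their values were seen. Pemt, which methylates phosphatidylethanolamine to phosphatidylcholine, had 301 FPKM at 4-cell, 600.0 at 8-cell and 42.1 in ICM. Gulo, which catalyses the last step of vitamin C synthesis, had 87.8 FPKM at 4-cell, 226 at 8-cell and 24.2 in ICM.

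The lysosomal and endocytic list had the highest share of genes at their maximum at the 8-cell stage, 13 of 30 (43.3%, beside 17.1%), although Tfeb was its sole peak gene. Tfeb encodes the transcription factor that switches on lysosomal genes. It was at most 0.477 FPKM up to the 2-cell stage, then 6.75 in 4-cell, 19 in 8-cell, 2.58 in ICM and 1.04 in mESC. The median difference of the 30 genes was -0.09, beside -0.85 over all 5347 genes. Peak genes outside the list also encode proteins of this compartment, and most were noticed after their values were seen. Smpdl3a, a secreted and lysosomal phosphodiesterase, had 13.1 FPKM in 4-cell, 54.6 in 8-cell and 16.3 in ICM. Lgals8, a galectin that binds sugars on damaged vesicles, had 12.4 FPKM in 4-cell, 54.9 in 8-cell and 16.7 in ICM. Rragd, a GTPase that recruits growth signalling to the lysosome, had 0.667 FPKM in 4-cell, 9.30 in 8-cell and 2.89 in ICM. Gla, the lysosomal alpha-galactosidase, Gpr137b, a lysosomal membrane protein, and Steap3, an endosomal iron reductase, were among the 5 genes closest inside the limit, with differences of 1.01 to 1.03. Fbxl20, an F-box protein, and Ctrl, a chymotrypsin-like protease, were the other 2. The 5 closest outside, at 0.97 to 0.99, were Cth, Gps2, Serinc1, the clathrin adaptor subunit Ap2m1 and the ganglioside activator Gm2a.

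Of 21 genes for junctions, adhesion and polarity with 5 FPKM or more at the 8-cell stage, 7 (33.3%, beside 17.1%) were highest there and 2 were peak genes, both of the tight junction. Cldn4, a claudin, had 4.00 FPKM in oocytes, 0.505 in zygotes, 0.392 in early 2-cell, 0.179 in 2-cell, 1.63 in 4-cell, 22.1 in 8-cell, 9.31 in ICM and 0.869 in mESC. Ocln, occludin, had 3.42 FPKM in 2-cell, 4.57 in 4-cell, 14.1 in 8-cell and 5.01 in ICM. In injected controls Cldn4 was higher than in the stage column, at 137, 83.8, 89.8 and 36.6 FPKM, and the blastocyst controls had 144, 136 and 331 FPKM, of which 2 lay above every 8-cell control. The stage table holds ICM, which lacks the outer cells, and no whole blastocyst.

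Further lists had a single peak gene. Hk1, a hexokinase, was the 1 of 14 glycolytic genes, with 4.15 FPKM in 4-cell, 9.38 in 8-cell and 0.987 in ICM. Fstl3, a secreted protein that binds and blocks activin, was the 1 of 8 signalling genes, with 7.38 FPKM in oocytes, 0.609 in 2-cell, 4.36 in 4-cell, 28.7 in 8-cell and 5.65 in ICM. Hprt, the X-linked purine salvage enzyme often used as a reference gene, was the 1 of 14 housekeeping genes, with 575 FPKM in 4-cell, 1448 in 8-cell and 636 in ICM. No peak gene came from 22 pluripotency, 17 trophectoderm and Hippo, 7 primitive endoderm, 84 oxidative phosphorylation or 82 cytosolic ribosomal protein genes that reached 5 FPKM at the 8-cell stage. Peak genes were 1.68% of all genes, so a count of 0 says little for the shorter lists. Of the 22 pluripotency genes, 6 (27.3%) were highest at the 8-cell stage, beside 17.1% of all genes. So were 5 of the 17 trophectoderm and Hippo genes (29.4%) and 1 of the 7 primitive endoderm genes (14.3%). The share was lower for the 84 oxidative phosphorylation genes, at 2 (2.38%), and for the 82 cytosolic ribosomal protein genes, at 4 (4.88%).

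The remaining genes with the largest differences were of mixed function. Bok, a member of the BCL2 family that promotes cell death, had 6.09 FPKM in 4-cell, 37.3 in 8-cell and 9.35 in ICM. Prl3b1, placental lactogen, had 0.331 FPKM in 2-cell, 24.5 in 4-cell, 83.8 in 8-cell, 0.637 in ICM and 0 in mESC. Vpreb3, best known from B cell precursors, had 29.7 FPKM at 8-cell. Cyba, a subunit of NADPH oxidase, had 16.0 FPKM and Kng1, kininogen, had 10.8 FPKM there, and all 3 were under 3 FPKM in ICM. The highest 8-cell levels after Hprt belonged to Timd2, a cell surface receptor, with 927 FPKM (456 in 4-cell and 42.5 in ICM), and to Cited1, a transcriptional co-regulator, with 683 FPKM (332 in 4-cell and 20.1 in ICM). Both were picked for mention after their values were seen, as were the X-linked examples.

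A check in separate 8-cell libraries was made with the 4 injected controls, which were not used to choose the genes. Of the 80 genes, 72 (90.0%) had 1 FPKM or more in all 4 controls, beside 94.8% of the genes with 5 FPKM or more at the 8-cell stage, and 54 (67.5%, beside 71.0%) had 5 FPKM or more in all 4. Their median control mean was 23.5 FPKM, beside 15.4 FPKM. The control mean lay within 1 log2 unit of the stage value for 49 genes (61.2%, beside 64.6% of the wider set), more than 1 unit below it for 24 and more than 1 unit above it for 7. The median log2 ratio of control mean to stage value was -0.67 for the peak genes and -0.42 for the wider set. Across the 80 genes, Spearman's rho between stage value and control mean was 0.79, a description across genes, which are not independent replicates. The median SD of log2(FPKM + 1) among the 4 controls was 0.43 for the peak genes and 0.30 for the wider set. Genes with a control mean under 1 FPKM were Rbm41, Rhox9, Nxf2 and Gm9376. Rhox9, an X-linked homeobox gene, had 19.1 FPKM in the stage column and was listed at 0 in all 4 controls. Prl3b1 had 1.08, 1.23, 15.7 and 2.90 FPKM in the controls, all below its 83.8 FPKM in the stage column, and Bhmt had 48.9, 74.4, 39.6 and 94.9 FPKM there, below its 489 FPKM. Rpph1, the RNA subunit of RNase P, went the other way, at 719, 2111, 1499 and 874 FPKM in the controls beside 29.2 FPKM in the stage column. It shares 73.0% of its exonic bases with Ccnb1ip1, so its value is uncertain.

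**Figure D2:**
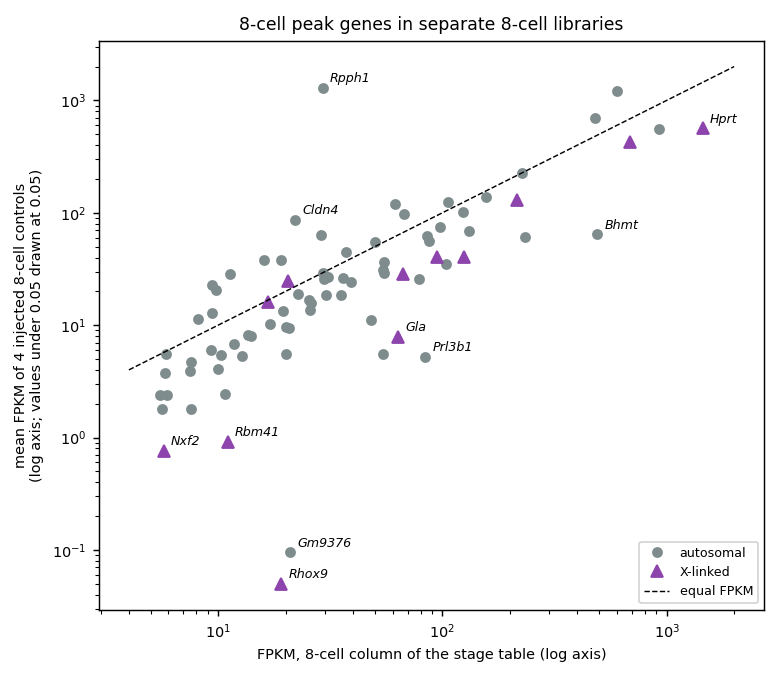
Mean FPKM of the 4 injected 8-cell controls (vertical, log axis) against FPKM in the 8-cell column of the stage table (horizontal, log axis) for 80 peak genes, with the line of equal values. Most genes lie within 1 log2 unit of the line, 11 of the 12 X-linked genes (triangles) lie below it, and Rhox9, at 0 in the controls, is drawn at 0.05.

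The fall after the 8-cell stage could also be looked at in injected embryos, between 8-cell controls and whole blastocyst controls. In 45 of the 80 genes (56.2%) every 8-cell control was above all 3 blastocyst controls, beside 39.9% of the 5285 genes with 5 FPKM or more at the 8-cell stage that are in those tables. Scaling all libraries to one median left the count at 45, beside 38.1%. In 7 genes (8.75%, beside 11.5%) every 8-cell control was below every blastocyst control. These were Crip2, Slc6a8, Gla, Gprc5a, Csrp1, Tmem62 and Rhox9. The LIM domain gene Crip2 had 103, 142, 126 and 132 FPKM in 8-cell controls and 528, 558 and 339 FPKM in blastocyst controls. The creatine transporter Slc6a8 had 28, 24.3, 23.8 and 22.5 FPKM in 8-cell controls and 33.8, 74.2 and 44.6 FPKM in blastocyst controls. A blastocyst control mean under 1 FPKM was found for 23 genes. Cited1 had 416, 342, 536 and 421 FPKM in 8-cell controls and 3.10, 7.31 and 1.10 FPKM in blastocyst controls. The blastocyst table was normalized apart, and blastocyst control 2 lists Rn45s at 0 while the other 2 have 37959 and 38111 FPKM. Without that library 53 of the 80 genes (66.2%) lay above, beside 58.8% of the 5285.

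Peak genes were more frequent on the X chromosome than on any autosome. Of 179 X-linked genes with 5 FPKM or more at the 8-cell stage, 12 (6.70%) were peak genes, beside 78 of 5150 autosomal genes (1.51%), and the autosome with the highest share was chromosome 13 with 4.10%. With quantile normalization of the stage columns the X-linked share was 3.91%, from 7 genes, beside 3.59% for chromosome 13. With a pseudocount of 5 it was again 3.91%, from 7 genes, beside 2.56%. X-linked genes thus made up 13.3% of the peak genes but 3.36% of the genes they were drawn from. The 12 were Hprt, Cited1, Wdr45, Ebp, Tsr2, Stag2, Gla, Slc6a8, Rhox9, Rbm41, Nxf2 and 4930550L24Rik. They include the cohesin subunit Stag2 (32.7 FPKM in 4-cell, 67.0 in 8-cell, 9.21 in ICM), the sterol isomerase Ebp (62.3 in 4-cell, 125 in 8-cell, 62.1 in ICM) and the autophagy gene Wdr45 (81.6 in 4-cell, 216 in 8-cell, 53.6 in ICM). By the same rule, X-linked genes were 10 of the 101 peak genes of the 2-cell stage with a known chromosome, 0 of 39 of the 4-cell stage and 19 of 324 of ICM.

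**Figure D3:**
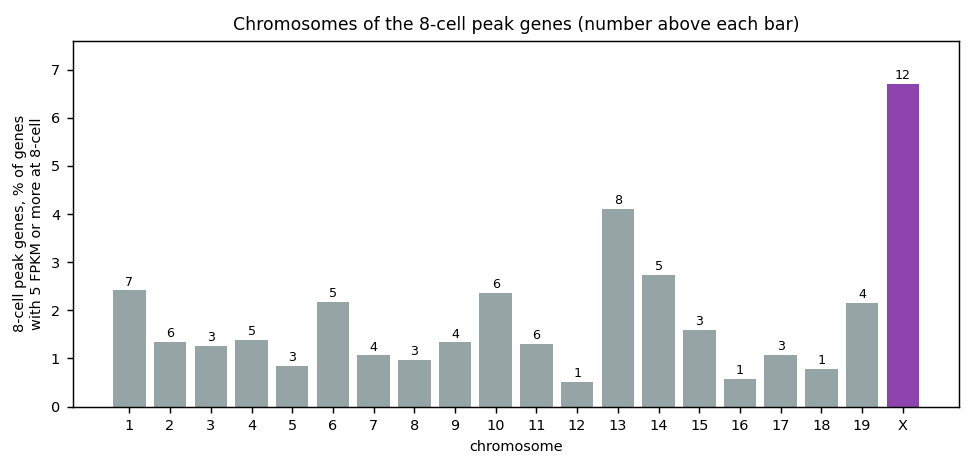
Share of genes with 5 FPKM or more at the 8-cell stage that were 8-cell peak genes (bars, percent, from 0), by chromosome, with the number of peak genes above each bar. The X chromosome stands at 6.70% with 12 genes and chromosome 13, the next, at 4.10% with 8.

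Other X- and Y-linked values moved between the same samples. The ratio of median FPKM of 170 X-linked genes to that of 5455 autosomal genes was 1.09 in 2-cell, 0.720 in 4-cell, 1.0 in 8-cell and 1.30 in ICM. In the injected 8-cell libraries the ratio was 0.472 to 0.543 with Nr5a2 knockdown and 0.443 to 0.483 in controls. Xist, the RNA that coats the inactive X, had 0.949 FPKM in 4-cell, 15.2 in 8-cell and 19.8 in ICM, and it was at most 0.0121 FPKM in all 8 injected 8-cell libraries. The Y-linked gene Eif2s3y had 6.98 FPKM in 4-cell, 2.19 in 8-cell and 0.146 in ICM, and 12.6 to 19.3 FPKM in the controls. Another Y-linked gene, Ddx3y, had 1.26 FPKM in the 8-cell stage column and 6.20 to 8.04 FPKM in the controls. Kdm5d, with 0.231 FPKM in the stage column, had 0.0269 to 0.414 FPKM in the controls. Uty was lower in the controls, at 0.0614 to 0.179 FPKM, than in the stage column, at 0.285 FPKM. In the control means 11 of the 12 X-linked peak genes were below the stage value, with a median log2 ratio of -1.28, as were 50 of 68 autosomal ones, with a median of -0.60. Over all genes with 5 FPKM or more at the 8-cell stage the median was -1.46 for X-linked and -0.39 for autosomal genes, so the X-linked peak genes were not further below the stage column than X-linked genes at large. The part of these differences in the X-linked peaks was not tested.

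The knockdown libraries tested which genes differed in 8-cell embryos after siRNA injection against Nr5a2. Changes that began before the 8-cell stage cannot be told apart from changes at that stage. Nr5a2 itself had 3.76, 4.25, 6.72 and 6.60 FPKM in knockdown libraries and 23.6, 20.3, 13.1 and 25.2 FPKM in controls (log2 fold change -1.76 on the log2(FPKM + 1) scale, which understates the change of low genes; SE 0.27, limma adjusted p = 0.0143). The groups did not overlap. Without control 1 the adjusted p was 0.0611. Nr5a2 was not a peak gene, since it had 48.1 FPKM in 4-cell and 38.4 FPKM in 8-cell embryos. Over all 8170 genes tested, the share that rose was 1.57% and the share that fell was 0.698% (2.26% in either direction, Benjamini-Hochberg adjusted p under 0.05), with a median log2 fold change of 0.12. Median scaling of the libraries moved that median to 0.02 and the calls to 75 higher and 80 lower, from 128 higher and 57 lower, and quantile normalization to 67 higher and 71 lower.

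Of the 80 peak genes, 77 passed the filter on low values. Among these 77, 6 fell (7.79%, beside 0.698% of all genes tested) and 2 rose (2.60%, beside 1.57%). The genes that fell were Steap3, Fstl3, Crip2, Rpph1, Tfeb and 1700123I01Rik, and those that rose were Agrp and Calm5. Median scaling gave 9 lower and 1 higher among the 77, and quantile normalization 6 lower and 1 higher. Leaving out genes with shared exonic bases, among them Fstl3 and Rpph1, gave 4 lower and 2 higher. Without the filter on low values none of the 8 passed (adjusted p of 0.0659 to 0.159), and neither did Nr5a2 (0.0845). The median log2 fold change of the 77 was -0.23, and 49 of them (63.6%) had a negative one, beside 39.5% of all genes tested. Among 812 tested genes that were highest at the 8-cell stage by less than 1, 13 fell and 12 rose, with a median of 0.00076. The share of the 812 that fell was thus also above the 0.698% of all genes tested. The share that rose (1.48%) was close to the 1.57% of all genes tested. Among 32 tested 4-cell peak genes none passed the threshold and the median was -0.05, with 6 (18.8%) at an unadjusted p under 0.05, beside 20.6% of all genes tested. Among 47 tested 2-cell peak genes none fell and 5 rose (10.6%, beside 1.57% of all genes tested), with a median of 0.33. The differences between these sets were not tested.

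Markers of the first lineages were also compared between these libraries. The summed level of the 6 pluripotency markers was 31.8 to 144 FPKM in knockdown libraries and 148 to 280 FPKM in controls, and 4 of the 6 had a mean of 1 FPKM or more in each group. Tdgf1, a co-receptor for Nodal, had 0.161, 1.24, 5.53 and 1.70 FPKM in knockdown libraries and 50.5, 49.5, 40 and 93.9 FPKM in controls, with no overlap. The other pluripotency markers all overlapped between the groups. Pou5f1 had 20.1, 42.4, 105 and 124 FPKM in knockdown libraries and 191, 172, 88.8 and 135 FPKM in controls. Nanog had 0.062 to 6.46 FPKM in knockdown libraries and 1.81 to 12.3 FPKM in controls. Klf2 had 7.40 to 17.5 and 13.1 to 26.6 FPKM. Sox2 and Fgf4 were at most 0.659 and 1.87 FPKM in any of these libraries, and the highest value of each was in a knockdown library. The 7 trophectoderm markers summed to 107 to 142 FPKM in knockdown libraries and 82.8 to 109 FPKM in controls, with 5 of the 7 at a mean of 1 FPKM or more in each group and Elf5 at 0 in all 8 libraries. The 2 ranges overlapped. Of these markers, the transcription factor Gata3 had 13.2, 11, 4.87 and 7.05 FPKM in knockdown libraries and 0.182, 3.36, 2.51 and 2.42 FPKM in controls. Tfap2c went the other way, with overlap, at 62.6, 29.0, 38.3 and 37.3 FPKM in knockdown libraries and 72.3, 51.0, 47.3 and 49.5 FPKM in controls. The 5 primitive endoderm markers summed to 14.3 to 30.0 FPKM in knockdown libraries and 27.6 to 36.9 FPKM in controls, again with overlap. The 5 2-cell markers summed to 0.898 to 5.53 FPKM in knockdown libraries and 0.0311 to 2.11 FPKM in controls, with overlap. A mean of 1 FPKM or more was reached by 2 of them in knockdown libraries and by 0 in controls. The part of all these markers in the fold changes of the peak genes was not tested.

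**Figure D4:**
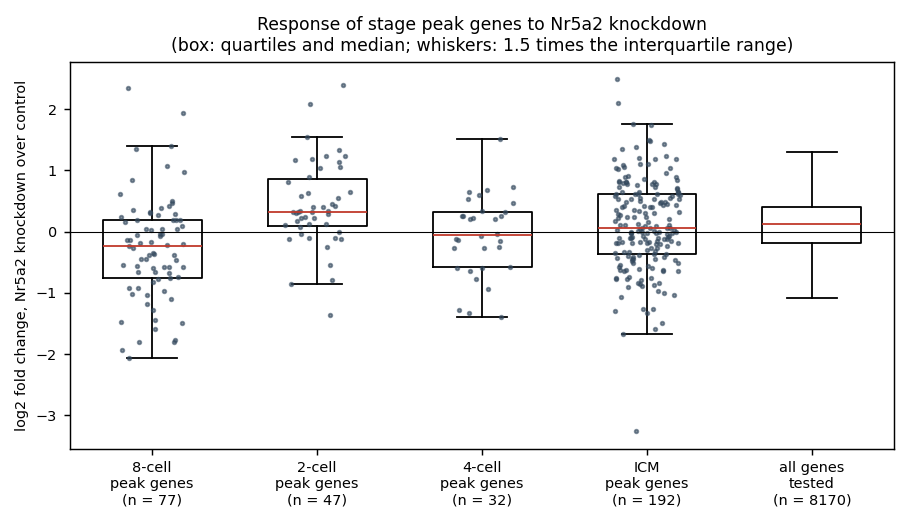
Log2 fold change of Nr5a2 knockdown over control on the log2(FPKM + 1) scale (vertical) for peak genes of 4 stages and for all genes tested; dots are genes, boxes give quartiles and median, whiskers reach 1.5 times the interquartile range, and single genes are not drawn for all genes. The median lies at -0.23 for 8-cell peak genes, 0.33 for 2-cell peak genes and 0.12 for all genes.

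Steap3, which reduces iron in endosomes, had the smallest adjusted p of the peak genes. It had 5.53, 3.69, 4.82 and 6.76 FPKM in knockdown libraries and 25.2, 19.7, 13.5 and 23.1 FPKM in controls, with no overlap. The means were 5.2 ± 1.29 and 20.4 ± 5.12 FPKM (SD, n = 4 each), and the log2 fold change was -1.77 (SE 0.26, limma adjusted p = 0.0119). Leaving out any 1 library did not end this call.

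Fstl3, the activin-binding protein, had 16.1, 10.7, 20.3 and 9.13 FPKM in knockdown libraries and 94.8, 81.3, 45.8 and 33.9 FPKM in controls, again with no overlap (log2 fold change -2.06, SE 0.34, limma adjusted p = 0.0166). Without control 1, control 2 or knockdown 2, the adjusted p was 0.0611, 0.0539 and 0.0532. Fstl3 shares 47.3% of its exonic bases with Prss57 on the opposite strand, and this library type does not keep the strand. Prss57 itself was at most 0.115 FPKM in knockdown libraries and 0.995 FPKM in controls.

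Crip2, a LIM domain protein, had 20.1, 30.7, 85.3 and 28.8 FPKM in knockdown libraries and 103, 142, 126 and 132 FPKM in controls (log2 fold change -1.80, SE 0.35, limma adjusted p = 0.0327). Knockdown 3 lay closer to the controls than the other 3 did. Leaving out knockdown 3 gave an adjusted p of 0.00102, and leaving out any other library gave 0.0614 to 0.0879. Tfeb had 22.4, 12.4, 13.5 and 15 FPKM in knockdown libraries and 47.5, 36.0, 23.0 and 44.6 FPKM in controls (-1.19, SE 0.27, limma adjusted p = 0.0443). Its groups were separated by less than 1 FPKM, between knockdown 1 and control 3. The call was lost without control 1, 2 or 4 or knockdown 2, 3 or 4, at adjusted p of 0.0654 to 0.143, and with a pseudocount of 0.1, at 0.0556. In the lysosomal and endocytic list, which includes Tfeb, the median log2 fold change of 32 tested genes was 0.38, beside 0.12 over all genes. Of these 32, 6 had a negative fold change, beside 39.5% of all genes tested. Any link to the level of Tfeb was not tested.

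Rpph1 had 461, 303, 412 and 556 FPKM in knockdown libraries and 719, 2111, 1499 and 874 FPKM in controls (-1.49, SE 0.31, limma adjusted p = 0.0370), without overlap. Without control 2, control 3, knockdown 1 or knockdown 2 the adjusted p was 0.0647 to 0.103. Rpph1 shares 73.0% of its exonic bases with Ccnb1ip1, so this fall is uncertain. Ccnb1ip1 had 3.01 to 11.7 FPKM in knockdown libraries and 4.20 to 15.7 FPKM in controls, with overlap. The clone-named locus 1700123I01Rik had 3.85, 1.22, 3.28 and 2.08 FPKM in knockdown libraries and 18.4, 6.26, 7.72 and 8.50 FPKM in controls (-1.59, SE 0.35, limma adjusted p = 0.0441). It was named after its values were seen, and its call held without knockdown 3 and was lost without any other library, at adjusted p of 0.0558 to 0.129. It was also lost with a pseudocount of 0.1 or 5, at 0.0556 and 0.0546.

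The genes that rose averaged 6.85 (Agrp) and 1.81 FPKM (Calm5) in controls, beside a median of 23.5 FPKM for the 80 peak genes. Agrp, a peptide that blocks melanocortin receptors, had 15.7, 33.0, 15.9 and 16.5 FPKM in knockdown libraries and 4.99, 9.89, 6.47 and 6.05 FPKM in controls (log2 fold change 1.40, SE 0.29, limma adjusted p = 0.0370). Calm5, a calmodulin-like protein, had 23.5, 7.19, 7.86 and 5.32 FPKM in knockdown libraries and 1.99, 2.70, 0.609 and 1.94 FPKM in controls (1.94, SE 0.42, limma adjusted p = 0.0420). Neither pair of groups overlapped. Agrp kept its call without knockdown 3 and lost it without any other library, at adjusted p of 0.0516 to 0.124. Calm5 kept its call without knockdown 3 or 4 and lost it without any other library, at adjusted p of 0.0558 to 0.113. Calm5 also lost it under median or quantile scaling and with a pseudocount of 0.1 or 5, at 0.0527 to 0.0597.

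**Figure D5:**
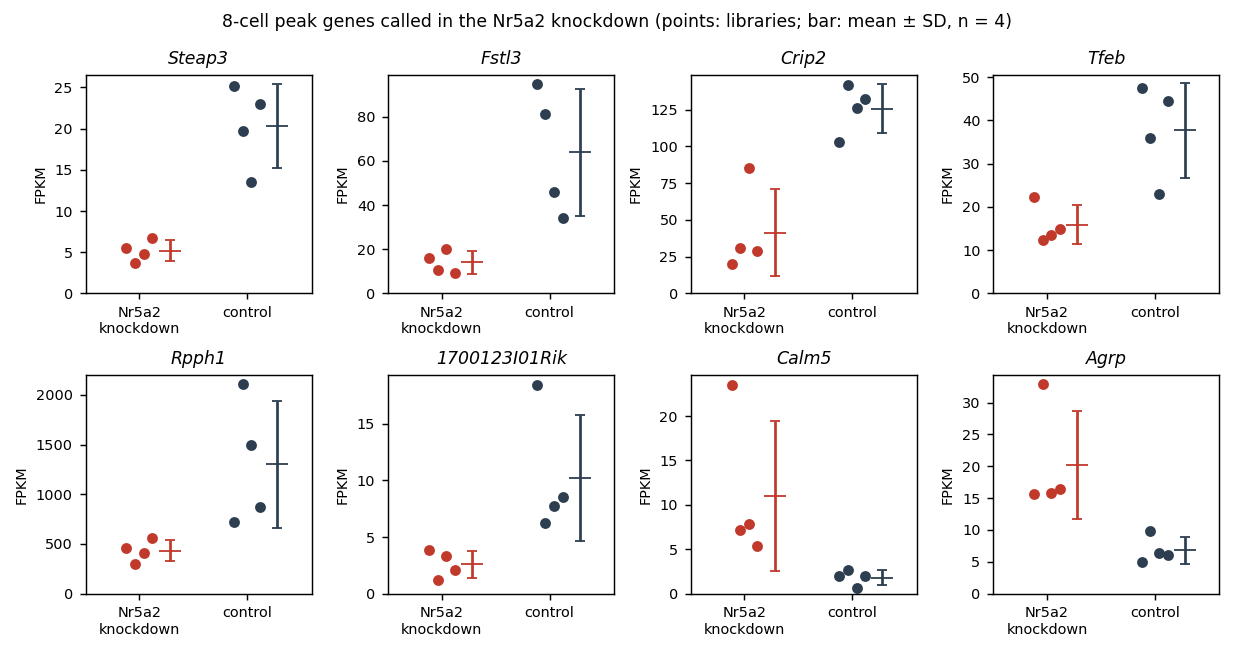
FPKM of the 8 peak genes past the threshold in the Nr5a2 knockdown, with points for libraries and bars for mean ± SD (n = 4 in each group); vertical axes differ between genes and start at 0. Knockdown libraries lie left of controls, and the groups do not overlap in any of the 8 genes, with knockdown 3 of Crip2 nearest to the controls among its group.

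Many other peak genes had lower means in the knockdown but missed the threshold. Bok had 21, 30.2, 23.5 and 17.6 FPKM in knockdown libraries and 38.7, 57.4, 47.0 and 35.5 FPKM in controls, with no overlap (log2 fold change -0.92, SE 0.22, limma adjusted p = 0.0558). Gpr137b was close to it (-0.92, SE 0.22, limma adjusted p = 0.0536). Under median scaling of the libraries both passed, at adjusted p of 0.0465 for Bok and 0.0453 for Gpr137b, and Gpr137b also passed without knockdown 3, at 0.0200. Cldn4 had 17.6, 16.4, 53 and 36.7 FPKM in knockdown libraries and 137, 83.8, 89.8 and 36.6 FPKM in controls (-1.48, SE 0.43, limma adjusted p = 0.0962), and its adjusted p was 0.0467 without knockdown 3. Bhmt had 16.0, 6.30, 58.8 and 35.3 FPKM in knockdown libraries and 48.9, 74.4, 39.6 and 94.9 FPKM in controls (-1.44, SE 0.54, limma adjusted p = 0.169). Both overlapped between the groups. Prl3b1 was at most 0.778 FPKM in knockdown libraries and at least 1.08 FPKM in controls (-1.80, SE 0.56, limma adjusted p = 0.116), so it missed the threshold without overlap. Of the 77 genes, 31 (40.3%, beside 20.6% of all genes tested) had an unadjusted p under 0.05, and 23 (29.9%, beside 6.87%) had one with a negative fold change.

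Among the 77 genes, 10.4% were called in either direction, beside 2.26% of all genes tested. Fstl3 and 1700123I01Rik, both with large stage differences, were among them, while Cthrc1, Slc39a2 and Slc46a1 were not. Cthrc1 averaged 25.6 ± 12.5 FPKM in knockdown libraries and 26.4 ± 25.2 FPKM in controls (SD, n = 4 each), with a log2 fold change of 0.24 (SE 0.51) whose sign changed without control 1 or knockdown 4. Slc39a2 averaged 21.3 ± 11.9 and 18.5 ± 3.03 FPKM (0.04, SE 0.36), with a negative sign under median or quantile scaling. Slc46a1 averaged 40.9 ± 6.60 FPKM in knockdown libraries and 62.1 ± 14.0 FPKM in controls (-0.58, SE 0.21, limma adjusted p = 0.158). Amt and the lysosomal enzyme gene Gla had positive fold changes without overlap between the groups, of 0.98 (SE 0.28, limma adjusted p = 0.0887) and 0.85 (SE 0.21, limma adjusted p = 0.0574). None of the 10 tested X-linked peak genes passed the threshold, with 5 of the 10 at an unadjusted p under 0.05, beside 20.6% of all genes tested.

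Promoter windows were searched because Nr5a2 binds DNA at an extended nuclear receptor half-site. RefSeq windows of 300 bases (250 before to 50 after a gene's start, GRCm38.p6) were matched for 64 of the 90 peak genes, with 1.44 windows per gene, beside 4332 genes with 5 FPKM or more at the 8-cell stage with 1.25 windows each. The motif CAAGGNCA, on either strand, was in 8 of the 64 (12.5%), beside 5.61% of those 4332 and 7.64% of 27025 genes in all. The 8 were Prl3b1, Bhmt, Pramel5, Pld3, Cited1, Esp24, Ctrl and Steap3. The windows of Pramel5 and Esp24 are closely alike around the match, so their matches may not be independent. Steap3 was the only one of the 8 that passed the threshold in the knockdown. The shorter half-site AGGTCA, which matches part of the longer motif where N is T, was in 20.3%, beside 14.5% and 18.1%. The GATA motif AGATAA was in 21.9%, beside 7.57% and 12.7%, and the TATA box TATAAA in 14.1%, beside 8.47% and 15.7%. The TEAD motif GGAATG was in 15.6%, beside 13.1% and 16.6%, the octamer ATGCAAAT in 1 gene (1.56%, beside 1.11% and 1.97%), and the GC box GGGCGG in 59.4%, beside 69.9% and 38.2%. A match is a description of letters, and all shares are given without a test.

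Windows of 4 of these genes are shown, with CAAGGNCA or its reverse complement in capitals (RefSeq, GRCm38.p6, 5′ to 3′ on the gene's strand). Of the 8 genes with the motif, Steap3 was called in the knockdown and Prl3b1 had the largest stage difference. Bhmt and Cited1 had the highest 8-cell levels. Steap3 lies on the minus strand, chr1:120270221-120270520, Bhmt on the minus strand, chr13:93637709-93638008, Cited1 on the minus strand, chrX:102250727-102251026, and Prl3b1 on the plus strand, chr13:27242180-27242479.
Steap3: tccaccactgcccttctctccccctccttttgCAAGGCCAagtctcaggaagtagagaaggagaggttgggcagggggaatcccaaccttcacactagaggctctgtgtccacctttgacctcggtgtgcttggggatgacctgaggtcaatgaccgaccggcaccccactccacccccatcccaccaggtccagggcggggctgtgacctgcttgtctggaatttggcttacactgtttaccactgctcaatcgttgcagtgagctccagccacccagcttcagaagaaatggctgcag
Bhmt: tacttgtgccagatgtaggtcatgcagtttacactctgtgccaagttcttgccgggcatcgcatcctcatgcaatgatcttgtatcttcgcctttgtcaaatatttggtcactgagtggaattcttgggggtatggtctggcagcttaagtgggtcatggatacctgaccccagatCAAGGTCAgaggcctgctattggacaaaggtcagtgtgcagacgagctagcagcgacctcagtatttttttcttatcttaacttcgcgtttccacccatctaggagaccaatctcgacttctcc
Cited1: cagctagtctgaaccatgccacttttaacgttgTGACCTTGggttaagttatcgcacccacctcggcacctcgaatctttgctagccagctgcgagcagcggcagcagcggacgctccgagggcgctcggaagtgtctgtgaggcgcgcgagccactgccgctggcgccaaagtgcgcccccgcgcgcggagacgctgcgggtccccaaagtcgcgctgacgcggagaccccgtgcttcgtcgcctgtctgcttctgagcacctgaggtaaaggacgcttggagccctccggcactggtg
Prl3b1: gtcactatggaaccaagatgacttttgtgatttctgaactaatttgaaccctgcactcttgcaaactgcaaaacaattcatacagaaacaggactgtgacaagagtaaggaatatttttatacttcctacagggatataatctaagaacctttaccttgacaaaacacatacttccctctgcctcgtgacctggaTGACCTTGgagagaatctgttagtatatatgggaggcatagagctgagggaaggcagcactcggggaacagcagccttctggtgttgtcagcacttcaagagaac
Counted from the gene's start, the match begins at base -218 in Steap3 (CAAGGCCA), -74 in Bhmt (CAAGGTCA), -217 in Cited1 and -55 in Prl3b1 (both TGACCTTG, the reverse complement of CAAGGTCA). In the knockdown, Steap3 fell by 1.77 on the log2 scale, while the fold changes of Bhmt, Prl3b1 and Cited1 missed the threshold (for Cited1 -0.55, SE 0.17, limma adjusted p = 0.109). Esp24, which also holds the motif, had 38.0, 12.7, 7.81 and 87.3 FPKM in knockdown libraries and 2.5, 3.57, 14.5 and 1.52 FPKM in controls, with overlap and a positive fold change that missed the threshold (2.34, SE 0.71, limma adjusted p = 0.105).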

How the data were processed

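RNA sequencing covered 32 samples. CASAVA 1.8, STAR 2.4.0 and the build mm9 are named for all samples and Cufflinks 2.2.1 for 20 of them, per the submitters' processing notes. The tool behind the values of the 8-cell knockdown libraries, MII oocytes and early 2-cell embryos is not given in the sources used here. The authors deposited FPKM values in 3 tables, 1 column per stage in the stage table (how replicates became 1 column is not given in the sources used here) and 1 per library in the knockdown tables. The 4 columns of blastocysts with Gata4 knockdown enter no result here. The stage table had 30 empty cells, all in MII oocytes. Read totals were not used here, and the files give no counts, so no counting intervals are given. Depth of the stage columns could not be read from their values.

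Stage columns were scaled so that 4739 genes with 1 FPKM or more in all 8 stages had one median (factors 0.835 for ICM to 1.46 for mESC), and peak genes needed 5 FPKM and a difference of at least 1 with a pseudocount of 1. Knockdown and control libraries were compared with limma 3.58.1 with a trended variance on log2(FPKM + 1), in R 4.3.3, for 8170 genes with 1 FPKM or more in at least 4 libraries; p-values were adjusted by Benjamini-Hochberg over all of them, with 0.05 as threshold. Replicates correlated at 0.926 to 0.948 in the knockdown and 0.944 to 0.958 in the controls. Copies (95% identity over 50% of the length) were searched with minimap2 2.31 in GENCODE M21 transcripts, and overlapping genes by its exon coordinates. By this, 9 peak genes had a near-identical match and 10 shared over 20% of their exonic bases with another gene. Most of the near-identical matches were in the gene that overlaps the locus, such as Cct6a for Snora15 and Ccnb1ip1 for Rpph1. Gm9376 matched Olfr1270 without such an overlap. Python 3.11.15, pandas 2.3.3 and numpy 2.4.6 were used.

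Named genes were the 20 with the largest stage difference, up to 5 per list, those called in the knockdown, the 5 on each side of the limit, and Nr5a2; loci with coded names were passed over. The genes, lists and tests were chosen with earlier results of these data known. Alternatives were other scalings, pseudocounts and filters, a replicate block and leaving out each library.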

Additional observations from a re-analysis of the deposited data

Results flagged for a closer look

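Among named genes, 66 groups of 4 libraries were searched for a library far from the other 3 (the gap to the nearest library over the whole range, above Dixon's 95% critical value), and 6 were found; chance flags about 1 in 20 groups. Calm5 had 23.5 FPKM in knockdown 1, where the others had 7.19, 7.86 and 5.32. Agrp had 33.0 FPKM in knockdown 2, where the others had 15.7, 15.9 and 16.5. Crip2 had 85.3 FPKM in knockdown 3, where the others had 20.1, 30.7 and 28.8. Prl3b1, placental lactogen, had 15.7 FPKM in control 3, where the others had 1.08, 1.23 and 2.90. Vpreb3 had 5.44 FPKM in control 2, where the others had 34.4, 32.3 and 30.9. Bhmt2 had 34.7 FPKM in control 4, where the others had 13.2, 13.8 and 14.8. The libraries concerned were 6 different ones.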

How the results depend on the processing

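The count of 90 peak genes became 52 with a pseudocount of 5, 14 with a difference of at least 2 and 916 with any positive difference; other scalings, filters and left-out stages gave 73 to 110. The list without scaling of 85 genes shared 78 with the main one. The share of X-linked genes that peaked was 3.91% under quantile normalization and with a pseudocount of 5, and 5.03% to 7.26% otherwise, and it stayed above the autosomal share (0.874% to 1.79%), and above that of chromosome 13, the highest autosome (2.56% to 4.62%), in each of these settings. In the knockdown, the count of higher peak genes (2) was 1 under median scaling, quantile normalization, a pseudocount of 0.1 or 5 and the replicate block, 0 without a filter, 0 to 3 with 1 library left out, and 0 or 14 for peak lists with a difference of at least 2 or any positive one. The count of lower ones (6) was 0 without a filter, 1 to 10 with 1 library left out, 0 or 19 for those lists, and 4 to 9 otherwise. The cause was not tested. Nr5a2 had -1.76 (adjusted p = 0.0845) without a filter and ranged from -1.95 to -1.64 with 1 library left out, with adjusted p of 0.0611 without control 1. The sign of fold changes close to 0 turned for Cthrc1 (-0.15 without control 1, -0.042 without knockdown 4, up to 0.79 without control 4), for Hprt (-0.020 under median scaling) and for Slc39a2 (-0.077 under median scaling, -0.054 under quantile normalization, -0.049, -0.0037, -0.020 and -0.28 without control 2, control 4, knockdown 2 and knockdown 4, up to 0.40 without knockdown 3). Of the other values for named genes, 377 kept their direction and side of the threshold, 58 lost a call and 4 gained one. Replicate numbers did not pair the libraries: same-numbered knockdown and control libraries had correlations of deviations of 0.036, 0.082, -0.11 and -0.0016, and with the replicate block 4 peak genes fell and 1 rose, beside 18 and 37 of all genes. Alternatives on short RNA loci, shared exonic bases, X-linked genes and blastocyst controls were chosen after seeing the data. With 4 libraries a group and 1 value a stage, small changes were not detectable.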
